A study of Mus musculus with 6 samples.

Results

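The genes described here are 7 genes of neurotrophic signalling, *Bdnf*, *Ntf3*, *Gdnf*, *Ngfr*, *Ntrk2*, *Ntrk3* and *Sort1*, chosen by gene symbol from the 17854 genes of the deposited table. All 7 were found in the table, and all 7 passed the expression filter that left 14289 genes for testing. The data are bulk RNA sequencing of 2 groups of Tomato+ cells from mouse knee articular cartilage, with 3 libraries in each group. Tomato marks cells in which Cre driven by *Prrx1*, a gene of limb mesenchyme, had recombined the R26 tdTomato reporter, so that it records descent from *Prrx1*-expressing cells and not what a cell expresses at sampling. The first group, called MSC-derived here and InjectPrrx in the labels, came from the repaired cartilage of C57BL/6 male mice with knee osteoarthritis after cutting of the anterior cruciate ligament. These mice had received an injection of *Prrx1*-lineage mesenchymal stromal cells sorted from the inguinal white fat of Prrx1-Cre; R26 tdTomato donors, and the hosts are not described as carrying the reporter. The second group, called endogenous here and NativePrrx in the labels, was taken from the articular cartilage of Prrx1-Cre; R26 tdTomato male mice matched for age, which themselves carried the Cre and the reporter and for which the labels name no surgery or injection. Surgery, injection, host genotype and tissue of origin thus all differ between the groups and cannot be told apart. The methods give 3 mice for each group without tying a library to a mouse, so p-values measure the spread between these libraries.

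Neurotrophins are secreted growth factors that are made as precursors and cut to their mature form, and they keep sensory and sympathetic neurons alive and steer their axons. The mature forms bind Trk receptor tyrosine kinases, while p75NTR, the product of *Ngfr*, binds all neurotrophins and, together with sortilin, the product of *Sort1*, binds their uncut precursors. GDNF is a related survival factor that uses its own receptors, GFRα proteins and RET. In joints such factors are known mainly for their action on the nerves that supply bone and synovium.

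The 3 ligands of these results share a kind of cut site, and its coding sequence is shown here because the groups differ in the expression of ligand genes and of the enzymes that cut the precursors. In each line the capitals mark the first run of 4 codons for arginine, any residue, lysine or arginine, and arginine in the open reading frame, inside 60 bases of a single coding exon. The coordinates are those of GENCODE M21 on GRCm38, a different build from the mm9 that the labels name. The sites lie at chr2:109723757-109723816 on the plus strand for *Bdnf*, chr6:126102062-126102121 on the minus strand for *Ntf3* and chr15:7834392-7834451 on the plus strand for *Gdnf*.
Bdnf: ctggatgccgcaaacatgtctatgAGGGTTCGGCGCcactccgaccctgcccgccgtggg
Ntf3: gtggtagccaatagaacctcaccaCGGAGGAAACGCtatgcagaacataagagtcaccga
Gdnf: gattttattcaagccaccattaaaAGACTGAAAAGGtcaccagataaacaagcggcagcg
The part after the site is the mature factor. It holds 119 codons in *Bdnf* and 119 in *Ntf3*, against 134 in *Gdnf*, which belongs to another family.

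The libraries were of like depth, with total expected counts between 22060628 and 24881796, and 3 counts, taken as the floor, equalled 0.121 to 0.136 CPM. CPM is the count per 1000000 counts of a library. This floor uses plain library totals and allows for counting error only. The CPM values below use totals over the genes tested, scaled by TMM normalization factors. The endogenous replicate 1 stood apart, with 3449 genes at 0 counts against 1323 and 1375 in the other endogenous libraries and 1923 to 1936 in the MSC-derived ones, so results that rest on it are given with and without it. The labels call both groups chondrocytes. All 13 chondrocyte markers, among them *Col2a1* and *Acan*, were lower in the MSC-derived libraries, where they summed to between 1089 and 1140 CPM against 56719 to 59593 CPM in the endogenous ones, and no chondrocyte marker was at 0 in all libraries of a group. All 14 leukocyte and macrophage markers were higher there, with sums of 16876 to 17213 CPM against 189.2 to 268.1 CPM. Whether every sorted Tomato+ cell descended from an injected cell was not tested. All 9 osteoblast markers were lower in the MSC-derived libraries, with 2423 to 2479 CPM against 79544 to 86384 CPM. These lists differ between the same 2 groups that are compared below, and their part in those results was not tested. In bulk RNA, fewer cells of a type and less RNA per cell cannot be told apart.

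Of the 7 genes, 1 was higher and 5 were lower in the MSC-derived libraries, and *Bdnf* did not pass the test (edgeR quasi-likelihood test, Benjamini-Hochberg adjusted p of 0.05 or less over the 14289 genes). *Sort1* was the gene that rose, and *Ntf3*, *Gdnf*, *Ngfr*, *Ntrk2* and *Ntrk3* fell. Over all genes tested, 31.3% were called higher and 30.3% lower, 61.6% in all, so calls were common in this comparison. The median log2 fold change, MSC-derived over endogenous, was -2.84 over the 7 genes and 0.05 over all genes tested. The groups did not overlap in CPM for 6 of the 7 genes, against 72.4% of all genes tested. The MSC-derived libraries were all lower for 5 of them, against 34.1% of all genes, and all higher for 1, against 38.2%. Without endogenous replicate 1 the calls were again 1 higher and 5 lower, when 37.8% of 14728 genes were called higher and 38.6% lower. Only 3 of the 7 genes, *Ntrk2*, *Ntrk3* and *Sort1*, reached 10 counts in all 3 libraries of both groups, and the others passed the filter mainly through the group in which they were higher.

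**Figure D1:**
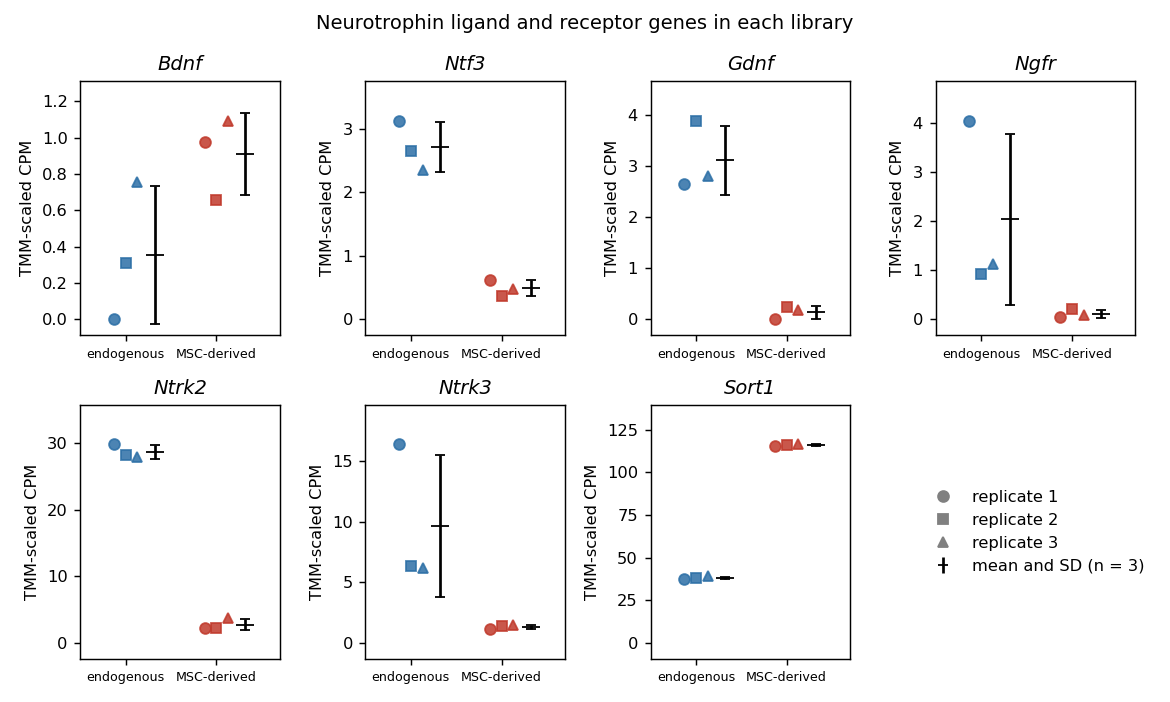
TMM-scaled CPM of the 7 genes in each of the 6 libraries, endogenous in blue and MSC-derived in red, with a marker shape for the replicate number and a black bar for mean and SD (n = 3). Only *Bdnf* has overlapping groups, and endogenous replicate 1 lies far above the other endogenous libraries for *Ngfr* and *Ntrk3*.

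Among the ligands, *Ntf3* encodes neurotrophin-3, the preferred ligand of TrkC. It had 16, 9 and 11 expected counts in MSC-derived replicates 1, 2 and 3, and 71, 60 and 56 in endogenous replicates 1, 2 and 3. Every endogenous library lay above every MSC-derived one. The log2 fold change was -2.45 ± 0.45 (SE, n = 3 against 3; edgeR adjusted p = 0.00235), which is 5.45-fold higher in the endogenous cells. Fits that left out any 1 library kept it between -2.65 and -2.27.

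*Gdnf*, the gene of glial cell line-derived neurotrophic factor, had 0, 6 and 4 counts in the MSC-derived libraries and 60, 88 and 67 in the endogenous ones. The groups lay far apart, and 1 MSC-derived library had no read. *Gdnf* changed by -4.43 ± 0.87 on the log2 scale (SE; edgeR adjusted p = 0.00318). With so few MSC-derived reads, the value moved to -3.84 without MSC-derived replicate 1 and to -5.10 without MSC-derived replicate 2, and the call was kept in both fits.

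*Bdnf* encodes brain-derived neurotrophic factor, the ligand of TrkB. It had 25, 16 and 25 counts in the MSC-derived libraries and 0, 7 and 18 in the endogenous ones. The groups overlapped, since endogenous replicate 3 exceeded MSC-derived replicate 2, and the endogenous libraries spread from no read to 0.753 CPM. The log2 fold change of 1.34 ± 1.03 (SE) did not pass the test (edgeR adjusted p = 0.290). Leaving out libraries moved it from 0.70, without endogenous replicate 1, to 2.52, without endogenous replicate 3, and the adjusted p stayed between 0.125 and 0.502 in these fits. The SE fell to 0.56 without endogenous replicate 1. An antisense gene, Gm45346, is annotated over *Bdnf*, and the library kit named in the labels does not mark strand, so reads of both genes cannot be told apart.

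*Ntf5*, the neurotrophin-4 gene, had no read in the MSC-derived libraries and 2, 5 and 3 counts in the endogenous ones, too few for the test.

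Among the receptors, *Ntrk2* encodes TrkB, which binds the *Bdnf* and *Ntf5* products. It had 59, 53 and 84 counts in the MSC-derived libraries and 676, 638 and 667 in the endogenous ones. All endogenous libraries lay close together and far above the MSC-derived ones. The log2 fold change was -3.40 ± 0.23 (SE; edgeR adjusted p = 1.04e-05), a 10.5-fold higher level in the endogenous cells. It kept between -3.66 and -3.25 when single libraries were left out.

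*Ntrk3* encodes TrkC. It had 29.2, 34.0 and 34.0 expected counts in the MSC-derived libraries and 371.8, 144.0 and 147.2 in the endogenous ones, where the fractions come from reads that RSEM shared between genes. The groups did not overlap, but endogenous replicate 1 stood far above its group. The log2 fold change was -2.84 ± 0.47 (SE; edgeR adjusted p = 0.00129), and without endogenous replicate 1 it was -2.28 (adjusted p = 2.28e-07). *Ntrk2* and *Ntrk3* each make kinase-bearing and truncated receptors, and the deposited gene counts pool them. The transcript length implied by counts and FPKM was between 6864 and 7589 bases for *Ntrk2* and between 3310 and 3712 bases for *Ntrk3*, with the groups overlapping for both, so it gave no separation by isoform length.

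*Ngfr*, the p75NTR gene, had 1, 5 and 2 counts in the MSC-derived libraries and 92, 21 and 27 in the endogenous ones. The groups did not overlap, and endogenous replicate 1 held most of the reads. With all libraries, the log2 fold change was -4.14 ± 0.92 (SE; edgeR adjusted p = 0.00568). It was -3.22 without endogenous replicate 1 (adjusted p = 0.000301) and -4.90 without MSC-derived replicate 2, so its size depends on single libraries while its call does not. p75NTR also marks Schwann cells, the glia of peripheral nerves. The Schwann cell markers did not move together in endogenous replicate 1. *Sox10* had 0 counts there against 20 and 18 in endogenous replicates 2 and 3, while *Dhh* had 206 counts against 24 and 26, and *Mbp* 410 counts against 217 and 189. Over the 10 Schwann cell markers tested, 3 were higher and 5 lower in the MSC-derived libraries. The list summed to 242.0 to 255.0 CPM against 579.8 to 635.0 CPM. *Pmp22*, 1 of those lower, held most of that sum, with means of 167.6 CPM against 397.0 CPM. The 3 higher were *Mag*, *Erbb3* and *Mbp*, with log2 fold changes of 5.15, 3.49 and 1.05. Of 5 neuronal markers tested 3 were lower, with sums of 5.20 to 6.60 CPM against 13.3 to 15.9 CPM over the list. *Scn9a* was at 0 in all MSC-derived libraries, and *Nefl* and *Isl1* were at 0 in all endogenous ones. The part of these cells in the values of *Ngfr*, *Ntrk2* and *Ntrk3* was not tested.

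*Sort1* encodes sortilin, a sorting receptor of the Golgi and endosomes that also carries proteins to lysosomes in cells without neurotrophin signalling. It had 2950, 2823 and 2661 counts in the MSC-derived libraries and 851, 859 and 932 in the endogenous ones. Within each group the libraries hardly differed, at 115.8 ± 0.513 CPM (SD, n = 3) and 38.2 ± 0.773 CPM. The log2 fold change was 1.60 ± 0.07 (SE; edgeR adjusted p = 1.48e-06), a 3.03-fold higher level in the MSC-derived cells, and it kept between 1.53 and 1.62 without any 1 library. TPM, which scales by transcript length and library, gave a smaller difference, with a log2 change of 1.09 for *Sort1* (limma on log2(TPM + 1), adjusted p = 0.000101), on a scale where the median over all genes was -0.28. An antisense gene, Gm12523, is annotated over *Sort1* and cannot be told apart without strand.

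**Figure D2:**
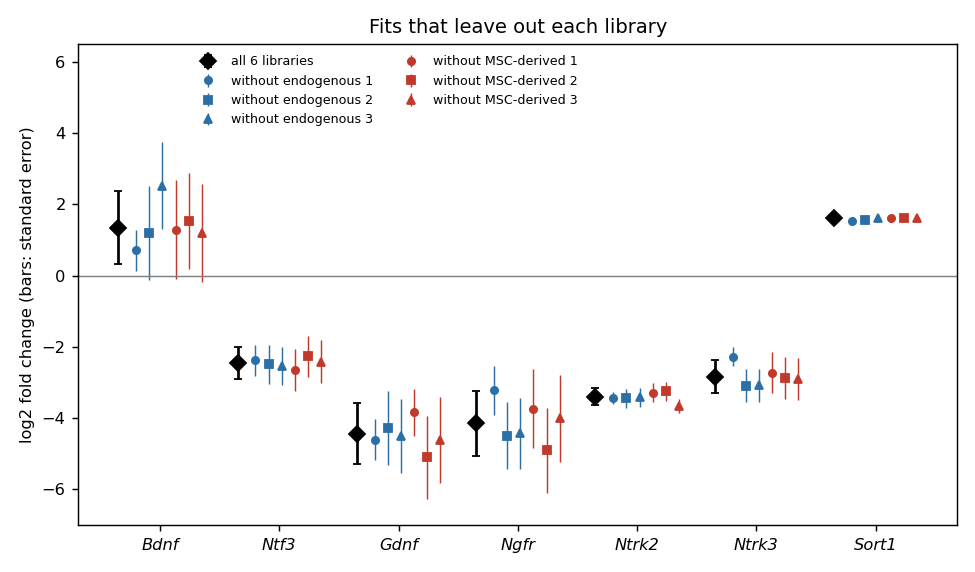
Log2 fold change, MSC-derived over endogenous, of the 7 genes in the fit to all 6 libraries (black diamonds) and in the 6 fits that each leave out 1 library, with standard errors as bars. *Sort1*, *Ntrk2* and *Ntf3* move the least, *Gdnf* and *Ngfr* shift by more than 1 unit between fits, and *Bdnf* ranges from 0.70 to 2.52.

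Levels of different genes were compared in TPM, a unit that allows for transcript length and sums to 1000000 in each library. The order of the 7 genes by TPM differed between the groups. In the MSC-derived cells *Sort1* led at 22.3 ± 0.175 TPM (SD, n = 3). *Ntf3* followed at 0.540 ± 0.135, *Ntrk2* at 0.493 ± 0.137 and *Ntrk3* at 0.493 ± 0.0814, and the ranges of these 3 overlapped. *Bdnf*, at 0.303 ± 0.0737, lay below them without overlap with *Ntrk3*, its neighbour in the order. *Gdnf* and *Ngfr* came last, both at 0.0433, with SDs of 0.0404 and 0.0321 and overlapping ranges.

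In the endogenous cells *Sort1* also led, at 9.98 ± 0.734 TPM, with no overlap with the next gene. *Ntrk2* followed at 6.88 ± 0.564, *Ntrk3* at 4.86 ± 3.40 and *Ntf3* at 4.11 ± 0.972, and each overlapped with its neighbour. The place of *Ntrk3* rests on endogenous replicate 1, where it had 8.79 TPM. In endogenous replicates 2 and 3 it had 3.0 and 2.8 TPM. There it lay below both *Ntrk2* (6.59 and 6.52 TPM) and *Ntf3* (3.77 and 3.36 TPM). *Gdnf*, at 1.40 ± 0.122, and *Ngfr*, at 1.16 ± 1.08, overlapped with each other and lay below *Ntf3*. Their overlap also rests on endogenous replicate 1, where *Ngfr* had 2.4 TPM. In endogenous replicates 2 and 3 *Ngfr* had 0.48 and 0.59 TPM, below *Gdnf* at 1.51 and 1.27 TPM. *Bdnf* was the lowest, at 0.153 ± 0.166.

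*Sort1* therefore made up most of the summed TPM of the 7 genes in one group and a minority in the other. Its share was 92.3%, 92.8% and 91.2% in MSC-derived replicates 1, 2 and 3, while endogenous replicates 1, 2 and 3 had 29.9%, 37.8% and 39.6%. The sum of the 7 genes itself was 24.2 to 24.3 TPM in the MSC-derived libraries and 24.6 to 36.2 TPM in the endogenous ones. The Trk receptor genes *Ntrk2* and *Ntrk3* together came to 0.0371, 0.0422 and 0.0532 of the *Sort1* level in MSC-derived replicates 1, 2 and 3, whereas their sum was 1.51, 1.02 and 0.957 of it in endogenous replicates 1, 2 and 3. These shares restate the levels above, and no separate test was made.

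**Figure D3:**
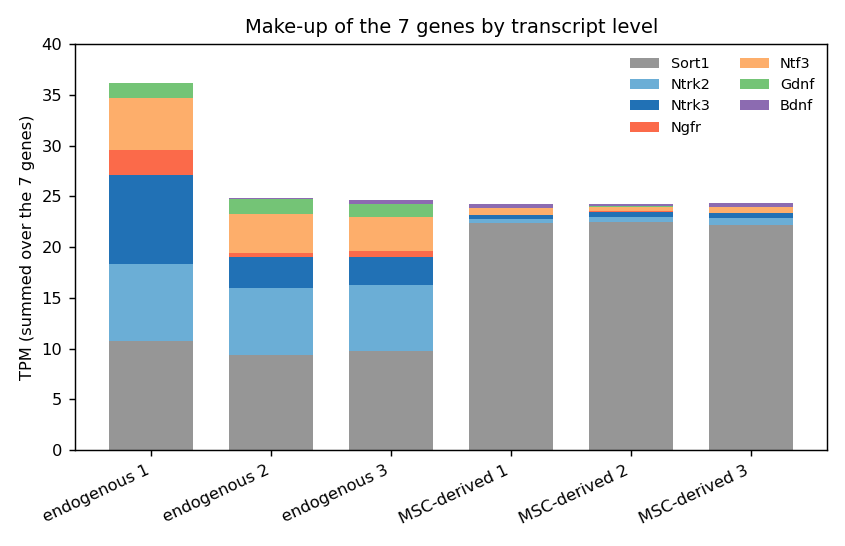
TPM of the 7 genes stacked for each of the 6 libraries, with 1 colour per gene. *Sort1* fills 91.2% to 92.8% of each MSC-derived bar and 29.9% to 39.6% of each endogenous bar, where *Ntrk2*, *Ntrk3*, *Ntf3* and *Gdnf* make up most of the rest.

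One promoter is shown for each of the 3 genes with the steepest falls, *Gdnf*, *Ngfr* and *Ntrk2*. Each runs from 250 bases before to 50 bases after a transcript start, as given by RefSeq on GRCm38.p6, read along the strand of the gene. Capitals mark GGGCGG on either strand, the core of the GC box, and TATAAA. The first of 2 *Gdnf* promoters, the one that holds a match, lies at chr15:7809798-7810097 on the plus strand, that of *Ngfr* at chr11:95587649-95587948 on the minus strand and that of *Ntrk2* at chr13:58806319-58806618 on the plus strand.
Gdnf promoter: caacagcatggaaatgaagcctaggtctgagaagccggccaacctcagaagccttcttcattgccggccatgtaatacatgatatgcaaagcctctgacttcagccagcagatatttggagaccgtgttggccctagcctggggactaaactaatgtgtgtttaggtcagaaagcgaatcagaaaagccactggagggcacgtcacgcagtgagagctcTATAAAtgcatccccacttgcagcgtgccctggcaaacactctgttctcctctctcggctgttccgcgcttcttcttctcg
Ngfr promoter: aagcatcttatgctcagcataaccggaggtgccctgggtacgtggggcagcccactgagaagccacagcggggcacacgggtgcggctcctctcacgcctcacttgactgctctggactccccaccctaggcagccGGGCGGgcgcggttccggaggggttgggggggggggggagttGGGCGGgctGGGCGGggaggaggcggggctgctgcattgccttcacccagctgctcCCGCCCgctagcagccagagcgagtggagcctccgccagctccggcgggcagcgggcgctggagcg
Ntrk2 promoter: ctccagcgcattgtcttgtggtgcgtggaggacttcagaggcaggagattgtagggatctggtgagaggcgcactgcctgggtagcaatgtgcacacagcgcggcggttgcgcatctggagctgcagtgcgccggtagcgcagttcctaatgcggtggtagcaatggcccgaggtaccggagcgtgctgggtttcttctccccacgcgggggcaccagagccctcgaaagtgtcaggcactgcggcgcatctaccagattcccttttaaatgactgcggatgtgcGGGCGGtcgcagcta
The *Ngfr* promoter held 4 matches to GGGCGG and the *Ntrk2* promoter 1, and the *Gdnf* one printed held a match to TATAAA. The other *Gdnf* promoter, at chr15:7813477-7813776 on the plus strand, held no match to either. In all, 13 promoters of 5 of the 7 genes were listed, 7 of them for *Bdnf*, and there was no entry for *Ntrk3* or *Sort1*. GGGCGG was in 6 of the 13, against 35.7% of all 32851 promoters, and TATAAA in 1, against 13.6%. TGACGTCA, the palindromic cyclic AMP response element, was in none of the 13, against 1.79% of all. A match describes letters only, and shared regulation of these genes was not tested.

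The remaining genes of the family were counted next. Of 6 other genes of neurotrophins and neurotrophin receptors, 3 had enough reads for the test. Of these 3, 1 was higher, 1 was lower and 1 did not pass it, where 61.6% of all genes were called. *Sorl1*, a sorting receptor related to sortilin, rose with a log2 fold change of 2.64 ± 0.09 (SE; edgeR adjusted p = 3.58e-07), from 2.80 ± 0.189 TPM (SD, n = 3) in the endogenous cells to 12.8 ± 0.674. *Sorcs2*, another relative that partners p75NTR, fell by 3.17 on the log2 scale (edgeR adjusted p = 7.75e-05). Sorting receptors of this family thus moved in both directions. *Nradd*, a gene related to *Ngfr*, had a log2 fold change of -0.48 ± 0.29 (edgeR adjusted p = 0.191) and was called lower without endogenous replicate 1 (adjusted p = 0.000379) and on the TPM scale. *Sorcs1* and *Sorcs3* had at most 2 counts in any library.

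GDNF binds GFRα1, which acts through RET or NCAM1. Of 9 further genes of the GDNF family, *Gfra3* was not analysed here and 7 were tested. Of these 7, 1 was higher and 4 lower, where 31.3% of all genes were called higher and 30.3% lower. The co-receptors moved in opposite directions. *Gfra1*, the main GDNF co-receptor, had 36, 49 and 47 counts in the MSC-derived libraries and 394, 414 and 469 in the endogenous ones, a log2 fold change of -3.34 ± 0.22 (SE; edgeR adjusted p = 8.64e-06). *Gfra2*, the co-receptor of neurturin, had 3171, 2788 and 2747 counts in the MSC-derived libraries and 1, 43 and 26 in the endogenous ones. Its log2 fold change was 6.88 ± 0.56 (SE; edgeR adjusted p = 2.81e-05), and its TPM was 47.2 ± 1.72 (SD, n = 3) against 0.517 ± 0.467. The value was 6.27 without endogenous replicate 1 and 7.64 without endogenous replicate 2. *Gfra2* was 80.8 to 129 times the level of *Gfra1* in TPM in the MSC-derived libraries, and 0.00408 to 0.142 times it in the endogenous ones. *Nrtn*, the neurturin gene, fell with a log2 fold change of -3.35 ± 0.35 (SE; edgeR adjusted p = 0.000106).

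The signalling partners of these co-receptors were lower. *Ret*, the receptor kinase, had 98, 55 and 55 counts in the MSC-derived libraries and 129, 225 and 324 in the endogenous ones, with a log2 fold change of -1.78 ± 0.39 (SE; edgeR adjusted p = 0.00556). *Ncam1* fell by 1.98 on the log2 scale (edgeR adjusted p = 3.02e-06). Of the other ligands and co-receptors, *Artn* had -1.50 ± 0.81 (adjusted p = 0.147) and *Gfra4* 0.72 ± 0.40 (adjusted p = 0.155), and neither passed edgeR's test. Without endogenous replicate 1, *Artn* was called lower (adjusted p = 0.00864) and *Gfra4* higher (adjusted p = 4.41e-06). *Pspn* had at most 15 counts in any library and was not tested.

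**Figure D4:**
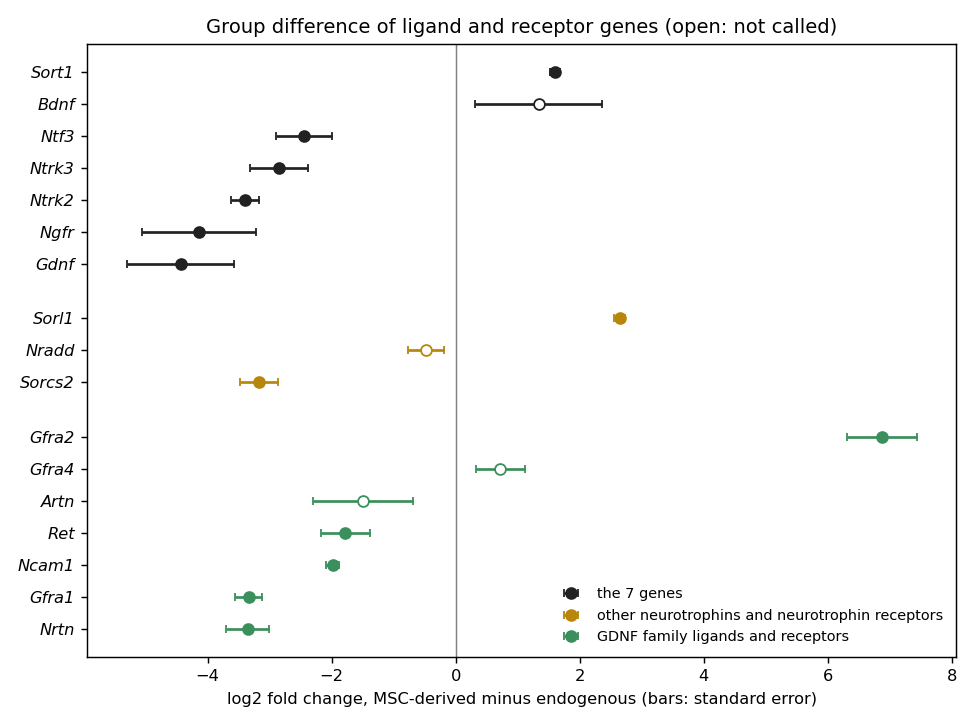
Log2 fold change, MSC-derived minus endogenous, with its standard error for the 7 genes (black), the other neurotrophins and neurotrophin receptors (ochre) and the GDNF family (green), with open circles for genes that did not pass the test. *Sort1*, *Sorl1* and *Gfra2* lie to the right of 0 and passed, and 10 genes lie to the left and passed.

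Enzymes that cut proneurotrophins or their products were mostly lower. Of 12 listed genes, *Plg* and *Mmp7* were not analysed here. Of the 10 tested, 2 were higher and 8 lower, against 31.3% higher and 30.3% lower over all genes. The median log2 fold change was -1.97, against 0.05 over all genes. Of the 8, *Pcsk1* and *Pcsk2* passed the filter through the endogenous group alone, so being tested already made a lower call likely. On the TPM scale 1 was higher and 8 were lower (limma on log2(TPM + 1)). On that scale 21.6% of all genes were called higher and 41.2% lower. *Furin*, which cuts at the sites printed above, fell by 1.29 on the log2 scale (edgeR adjusted p = 2.75e-05). *Cpe*, a carboxypeptidase that trims and sorts prohormones, fell with a log2 fold change of -4.82 ± 0.07 (SE; edgeR adjusted p = 2.30e-08). *Pcsk2*, a convertase of secretory granules, had 5, 1 and 0 counts against 48, 32 and 35 (log2 fold change -4.28 ± 0.93, edgeR adjusted p = 0.00514, and -5.98 without MSC-derived replicate 1). Its relative *Pcsk1* had 2, 0 and 1 counts in the MSC-derived libraries and 85, 28 and 40 in the endogenous ones. It was called lower as well, with a log2 fold change of -5.59 ± 0.93 (SE; edgeR adjusted p = 0.00139). With so few MSC-derived reads, the value moved between -6.38 and -5.03 in the fits that left out a library. *Mmp9*, a gelatinase of leukocytes and osteoclasts that can cut proneurotrophins outside the cell, rose with a log2 fold change of 2.77 ± 0.08 (SE; edgeR adjusted p = 1.51e-07). *Pcsk7* was higher by 0.42 ± 0.12 (edgeR adjusted p = 0.0202), but the call was lost in 3 of the 6 fits that left out a library (adjusted p 0.0657 to 0.0757, without MSC-derived replicate 1 or 3 or endogenous replicate 2) and on the TPM scale (limma, adjusted p = 0.716).

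The list of genes that cleave or partner p75NTR had 18 genes, all tested, of which 10 were higher and 3 lower, with a median log2 fold change of 0.50, against 31.3% higher and 30.3% lower over all genes. On the TPM scale the list was split evenly, with 5 higher and 5 lower (limma on log2(TPM + 1)), where 21.6% of all genes were called higher and 41.2% lower. Subunits of γ-secretase, the protease that releases the inner part of p75NTR, were among those higher, with *Psen2* at 1.84 ± 0.13 (SE; edgeR adjusted p = 1.22e-05) and *Aph1b* at 1.44 ± 0.12 (edgeR adjusted p = 3.00e-05). *Bex1*, an adaptor of p75NTR, rose by 3.22 ± 1.14 (edgeR adjusted p = 0.0406) on few reads, and its call was lost without any 1 of the MSC-derived replicates or without endogenous replicate 3 (adjusted p 0.105 to 0.150), while without endogenous replicate 2 the value was 6.81. *Lingo1* and *Rtn4r*, which form the Nogo receptor complex with p75NTR in neurons, fell with log2 fold changes of -5.73 ± 0.53 (edgeR adjusted p = 5.95e-05) and -3.42 ± 0.43 (edgeR adjusted p = 0.000310), and *Lingo1* was at -6.63 without MSC-derived replicate 2. *Maged1*, an adaptor of p75NTR, fell by 1.88 (edgeR adjusted p = 2.86e-07). *Bex1*, *Lingo1* and *Rtn4r* passed the filter mainly through the group in which they were higher.

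Of 17 Trk adaptors and effectors, all tested, 2 were higher and 7 lower, with a median log2 fold change of -0.50. Over all genes 31.3% were called higher and 30.3% lower, 61.6% in all. On the TPM scale 1 was higher and 12 were lower (limma on log2(TPM + 1)), where 21.6% of all genes were called higher and 41.2% lower. *Grb2*, a general adaptor of receptor tyrosine kinases, rose by 1.41 ± 0.08 (SE; edgeR adjusted p = 4.53e-06). *Kidins220*, a scaffold of neurotrophin receptors, rose by 0.48 ± 0.11 (edgeR adjusted p = 0.00603), a call lost on the TPM scale (limma, adjusted p = 0.811). The Shc adaptors of neurons, *Shc3* and *Shc2*, fell with log2 fold changes of -3.32 ± 0.38 (edgeR adjusted p = 0.000188) and -2.44 ± 0.22 (edgeR adjusted p = 5.35e-05), and *Gab1*, a docking protein, fell by 1.84 (edgeR adjusted p = 1.67e-05). Many of these genes serve other receptors too, so the counts are not specific to neurotrophins.

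**Figure D5:**
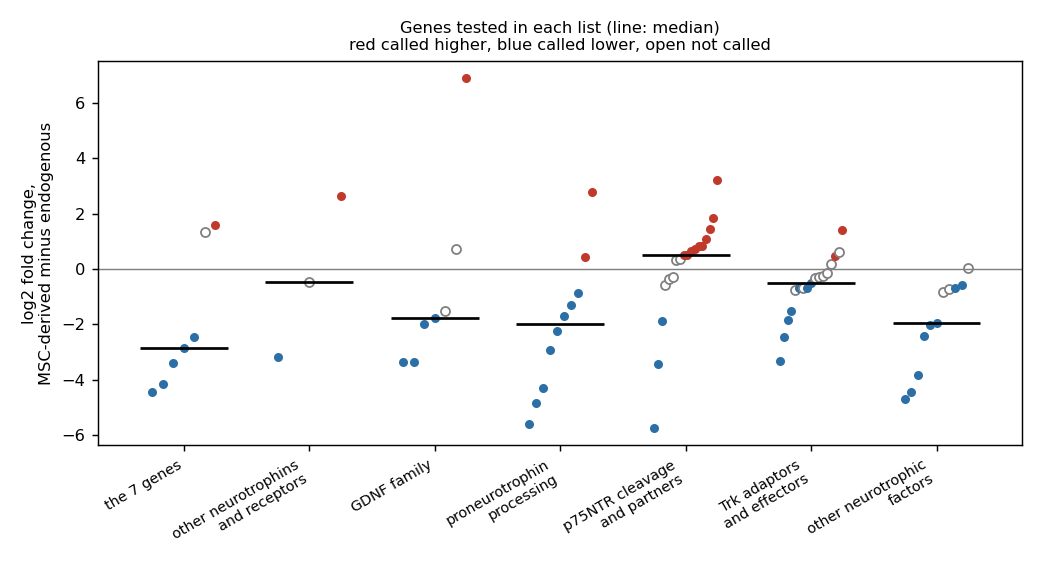
Log2 fold change, MSC-derived minus endogenous, of each gene tested in the 7 genes and in 6 lists around them, with red for called higher, blue for called lower, open for not called and a black line for the median. The median is -2.84 for the 7 genes and 0.50 for p75NTR cleavage and partners, the one list whose median lies above 0.

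Over all 6 lists, without the 7 genes, 66 of 73 genes were tested and 16 were higher and 31 lower, so 34.0% of the called genes were higher, against 50.8% of the called genes over the whole table, with a median log2 fold change of -0.67. On the TPM scale the split was 9 higher and 43 lower (limma on log2(TPM + 1)), or 17.3% higher, against 34.4% over the whole table. The TPM scale thus lowers the share for all genes and not for these lists alone. The lists were chosen with earlier results of these data known, so these shares give no independent support.

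The tested genes whose profiles over the 6 libraries lay closest to each of the 7 genes were found by the Euclidean distance of log2 CPM centred on the gene mean. The closest were *Fth1* (distance 0.0698) and *Wdr41* (0.0885) for *Sort1*, *Slc2a10* (0.283) and *Mpdz* (0.330) for *Ntrk2*, and *Map1a* (0.289) and *Pappa2* (0.368) for *Ntrk3*. For *Ntf3* they were *Arsi* (0.278) and *Sytl2* (0.283), for *Gdnf* *Adra1b* (0.548) and *Gpr37l1* (0.558), for *Ngfr* 2310030G06Rik (0.687) and *Fhad1* (0.691), and for *Bdnf* *Catip* (0.538) and *Magix* (0.548). The distances were smallest for *Sort1*, the gene with the most reads of the 7, and largest for *Ngfr*.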

How the data were processed

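Libraries of 6 samples were made from total RNA with the Illumina TruSeq RNA kit, which does not mark strand. Per the labels, the submitters' processing notes name mm9, Bowtie2 2.2.5 and RSEM 1.2.12, while the paper's methods give SOAPnuke, HISAT2, Bowtie2 and RSEM with other versions. The authors deposited expected counts per gene from RSEM without normalization, FPKM, TPM summing to 1000000 per library, and a further normalized signal that was used only to check the counts. FPKM summed to 808701 to 813572 in the MSC-derived and 504768 to 573603 in the endogenous libraries. Of the deposited columns, 24 were mapped to samples, 8 group averages were not used and 0 were left unmapped.

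Rounding the expected counts changed 20.6% of values. The quasi-likelihood test of edgeR 4.0.16 (R 4.3.3) was run on them with filterByExpr, TMM factors and no block. Benjamini-Hochberg adjustment covered 14289 genes, with a threshold of 0.05. A run on simulated data came first, with far fewer changed genes than were called here, so it does not check the calls in this setting. Levels between genes use TPM. The 7 genes and all lists were chosen with earlier results of these data known. All 7 are named. Of the lists of other neurotrophins and of the GDNF family the genes analysed are accounted for, and a few listed genes are not reported here. Of the other lists the 3 largest called increases and decreases are named, and *Furin* was added after its values were seen. The 2 nearest profiles of each of the 7 genes are named too. Alternatives were DESeq2 1.42.0, limma 3.58.1 on log2 FPKM (pseudocounts 1 and 0.1) or log2 TPM (pseudocount 1), 3 other normalizations, 2 other filters, a replicate block, each library left out, and a threshold of 0.001. Figures were drawn with matplotlib 3.10.9.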

Additional observations from a re-analysis of the deposited data

How the results depend on the processing

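*Sort1* stayed higher and *Ntrk2* stayed lower, both past the threshold, in all 18 alternatives, and *Bdnf* passed in none of its 17 (adjusted p 0.0729 to 0.502). Of the 7 genes, 1 was higher in all 18 alternatives and 5 were lower in all 6 fits without a library. The count lower was 4 under the filter of 1 CPM in 3 libraries and in limma on log2(FPKM + 1) without a filter, 1 at an adjusted p of 0.001, and 5 in the rest. At 0.001, *Ntf3* (-2.45), *Gdnf* (-4.43), *Ngfr* (-4.14) and *Ntrk3* (-2.84) no longer passed, 2134 genes were called higher and 2380 lower over all genes, and 8 genes of the pathway lists higher. In limma on log2(TPM + 1), 9 genes of the pathway lists were higher. In limma on log2(FPKM + 1) without a filter, *Ngfr* was -0.59 (adjusted p = 0.0729), on a scale that shrinks low values. *Bdnf* and *Ngfr* had no value under the filter of 1 CPM in 3 libraries. Leaving out each library gave 3672 to 5562 genes higher and 3761 to 5686 lower, and 14 to 19 higher and 29 to 39 lower in the pathway lists, with the highest counts without endogenous replicate 1. Library totals alone moved the median of all genes to 0.16, and TPM moved it to -0.28. Same-numbered libraries did not deviate together (correlations 0.0022 to 0.0178). With the replicate block the values were 1.84 for *Bdnf*, -2.47 for *Ntf3*, -4.68 for *Gdnf*, -3.90 for *Ngfr*, -3.43 for *Ntrk2*, -2.68 for *Ntrk3* and 1.60 for *Sort1*, and the block changed no call among the 7 genes. *Ntf3*, *Gdnf*, *Ngfr* and *Bdnf* rest on at most 92 counts in any library, which limits the precision of their fold changes.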

Other observations

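Other neurotrophic factors and their receptors were measured as well. Of 11 such genes, 8 were lower in the MSC-derived libraries and 3 did not pass the test (edgeR, Benjamini-Hochberg adjusted p of 0.05 or less). The median log2 fold change was -1.95, and 30.3% of all genes were lower. Among the 8, *Clcf1* passed narrowly (edgeR adjusted p = 0.0438), with groups that overlapped in CPM. Its call was lost in 5 of the 6 fits that left out a library (edgeR adjusted p 0.0975 to 0.139). On the TPM scale all 11 were lower (limma on log2(TPM + 1)), where 41.2% of all genes were. *Lif*, the gene of leukaemia inhibitory factor, had 77, 76 and 61 counts in the MSC-derived libraries and 1049, 906 and 936 in the endogenous ones. Its log2 fold change was -3.83 ± 0.15 (SE; edgeR adjusted p = 6.05e-07). *Lifr*, its receptor, fell with a log2 fold change of -4.45 ± 0.22 (edgeR adjusted p = 2.01e-06), and *Cntfr*, the receptor of ciliary neurotrophic factor, with -4.69 ± 0.48 (edgeR adjusted p = 9.56e-05) and -5.38 without MSC-derived replicate 1. The genes that did not pass edgeR's test were *Cntf*, *Ptn* and *Manf*.

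Other cell types of the joint were compared by their markers. Of 10 mural cell markers, 9 were lower in the MSC-derived libraries, with sums of 92.2 to 100.8 CPM against 943.1 to 968.4 CPM. Of 8 endothelial markers, 5 were higher, with 92.5 to 100.3 CPM against 27.0 to 43.9 CPM. Of 7 platelet markers tested, 1 was higher and 2 lower, with 64.1 to 67.0 CPM against 27.4 to 38.6 CPM. The part of these cells in the values of the 7 genes was not tested. Skeletal muscle markers summed to 4.38 to 6.52 CPM in the MSC-derived libraries and 3.98 to 6.52 CPM in the endogenous ones.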
